A study of Mus musculus with 8 samples.

Results

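The sodium pump has a catalytic alpha subunit, a beta subunit and often a small regulatory protein of the FXYD family, and the genes described here are the Fxyd regulators Fxyd1 to Fxyd6 and the beta subunits Atp1b1, Atp1b2 and Atp1b3. They were selected by name, as the rows of the count table whose Entrez Gene ID belongs to one of these symbols, and all 9 were found among 24594 listed genes. Fxyd2 was chosen because its expression differed between the compared fractions, so its values are a description and were not tested. The other 8 genes were chosen as members of the same families. RNA came from luminal cells of the mammary gland of wild type, untreated C57BL/6J mice, sorted on EpCAM, CD49f, cKit and CD14. Cells with much c-Kit on their surface made up the luminal progenitor fraction (LP) and cells with little c-Kit the mature luminal fraction, with 4 libraries of each. All libraries share this genotype, strain and lack of treatment. The labels give no age, and the methods give an adult age range for experimental mice in general, not for these libraries. The methods call the replicates of the RNA-seq biological, and neither they nor the labels say whether those of a fraction came from separate mice, so the p-values measure the spread between these libraries. The labels give each LP library a number that it shares with 1 mature library, without saying what the number marks. The libraries held 4410049 to 7791593 counts on genes, and 3 counts, the limit that a count of 0 allows, corresponded to between 0.385 and 0.68 CPM, the level after each library's counts are scaled to the same total (here the total as deposited). This limit covers counting error only.

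The sodium pump, or Na,K-ATPase, moves sodium out of the cell and potassium in, at the cost of ATP. The alpha subunit binds the ions and splits ATP, the beta subunit is needed for the pump to fold and reach the plasma membrane, and an FXYD protein tunes how strongly the pump binds sodium and potassium. In epithelia the resulting sodium gradient drives cotransporters and sodium channels, and in the mammary gland the pump helps to keep milk low in sodium.

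The FXYD proteins take their name from a conserved motif of 4 amino acids just before the membrane, and the codons of that motif are what ties the 6 Fxyd genes together. The coding stretch around it is shown for each of them, as read from GENCODE transcripts on the GRCm38 (mm10) genome, 5′ to 3′ on the coding strand, with the 12 bases of the motif in capitals and 15 coding bases on either side.
Fxyd1: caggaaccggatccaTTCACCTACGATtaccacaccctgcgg
Fxyd2: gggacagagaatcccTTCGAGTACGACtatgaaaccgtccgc
Fxyd3: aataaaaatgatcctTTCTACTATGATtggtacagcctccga
Fxyd4: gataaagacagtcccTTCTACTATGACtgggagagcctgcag
Fxyd5: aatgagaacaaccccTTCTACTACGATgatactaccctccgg
Fxyd6: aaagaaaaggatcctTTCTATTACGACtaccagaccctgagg

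In all 6 genes an intron lies inside the motif, after 10 of its 12 bases, so that the last codon is divided between 2 exons. That intron measured 102 bases in Fxyd5, 104 in Fxyd6, 155 in Fxyd2, 418 in Fxyd1, 508 in Fxyd4 and 708 in Fxyd3. Of the 12 motif bases, 7 were the same in all 6 genes, against 5 of the 30 flanking bases. The most alike stretches were those of Fxyd1 and Fxyd6, with 31 of 42 bases identical, followed by Fxyd3 and Fxyd4 with 30. Fxyd2 and Fxyd3, whose counts went in opposite directions between the fractions, shared 23 of 42 bases, as did Fxyd1 and Fxyd4, and no pair shared fewer. The coding sequences ranged from 192 bases in Fxyd2 to 534 in Fxyd5.

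Fxyd2 (chr9:45399669-45410278, plus strand) begins 3509 bases after the end of Fxyd6 (chr9:45370185-45396159) on the same strand. Fxyd5 (chr7:31032722-31042481), Fxyd1 (chr7:31051678-31057199) and Fxyd3 (chr7:31068172-31076704) lie with Fxyd7 within 43983 bases, all on the minus strand. Fxyd4 is at chr6:117933559-117937692, Atp1b1 at chr1:164437109-164458355, Atp1b2 at chr11:69599736-69605942 and Atp1b3 at chr9:96332655-96364442, all on the minus strand.

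The fractions matched their labels. Kit, the receptor used in the sort, lay between 522 and 832 CPM in LP and between 41.2 and 179 CPM in mature libraries. Elf5, a progenitor transcription factor, lay between 191 and 249 CPM in LP and between 25.7 and 112 CPM in mature libraries, whereas Pgr, the progesterone receptor of hormone-sensing cells, lay between 11.2 and 41.0 CPM in LP and between 140 and 195 CPM in mature libraries. The luminal keratin Krt8 was at 2301 CPM or more in all 8 libraries. The summed level of the 4 luminal progenitor markers Kit, Elf5, Cd14 and Aldh1a3 in mature libraries was between 1.8% and 7.12% of that in the lowest LP library, with mature replicate 3 the highest. Most of that sum was Cd14, another gene used in the sort, at a mean of 14087 CPM in LP and 185 CPM in mature cells, and the fractions lay closer together for the other 3 markers, with Aldh1a3 at 422 to 758 CPM in LP and 60.1 to 378 CPM in mature libraries. Mature replicate 3 also had the highest summed level of 6 basal markers, 47.2 CPM against 5.78 to 24.4 CPM in the other mature and 4.02 to 16.8 CPM in LP libraries. Markers of other cell types were low, with sums of 7.35 to 179 CPM for 6 fibroblast genes, most of it Dcn in mature replicates 1 and 2, and at most 8.48 CPM for 3 endothelial, 7.8 CPM for 5 immune and 0.433 CPM for 3 adipocyte genes. In bulk samples such as these, fewer cells of a type and less RNA per cell cannot be told apart.

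Fxyd2 encodes the gamma subunit of the pump, best known from the kidney. Its level was 17.7, 7.62, 12.1 and 7.49 CPM in LP replicates 1 to 4 and 247, 181.5, 151 and 308 CPM in mature replicates 1 to 4. Every mature library was above every LP library. The mean was 11.2 ± 4.83 CPM in LP (SD, n = 4) and 222 ± 70.1 CPM in mature cells (SD, n = 4), a ratio of 19.8 in favour of mature cells. Of the 12816 genes that passed the filter on low counts, 40 had a lower log2 fold change of LP against mature cells than the -4.30 of Fxyd2. These are the values for which Fxyd2 was chosen, and the study itself placed it in a set of mature luminal genes drawn from these samples.

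Fxyd3, also called Mat-8 and first found in mouse mammary tumours, went the other way. Its level was 228.5, 278, 224 and 299.9 CPM in LP replicates 1 to 4 and 68.8, 72.5, 130.4 and 126 CPM in mature replicates 1 to 4. The fractions did not overlap, and the mean fell from 257.5 ± 37.3 CPM in LP to 99.4 ± 33.3 CPM in mature cells (SD, n = 4 each). Fxyd3 was 2.59-fold higher in LP, a log2 fold change of 1.37 ± 0.24 (SE) and an edgeR adjusted p of 0.0027. The 2 mature libraries with most Fxyd3, replicates 3 and 4, were also the 2 with the highest sum of luminal progenitor markers, and the part of those markers in the Fxyd3 level was not tested. Without mature replicate 3 the log2 fold change was 1.55 (edgeR adjusted p = 0.00192). Fxyd3 belongs to a set of LP genes that the study drew from these same samples, so its direction here is not independent evidence.

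**Figure D1:**
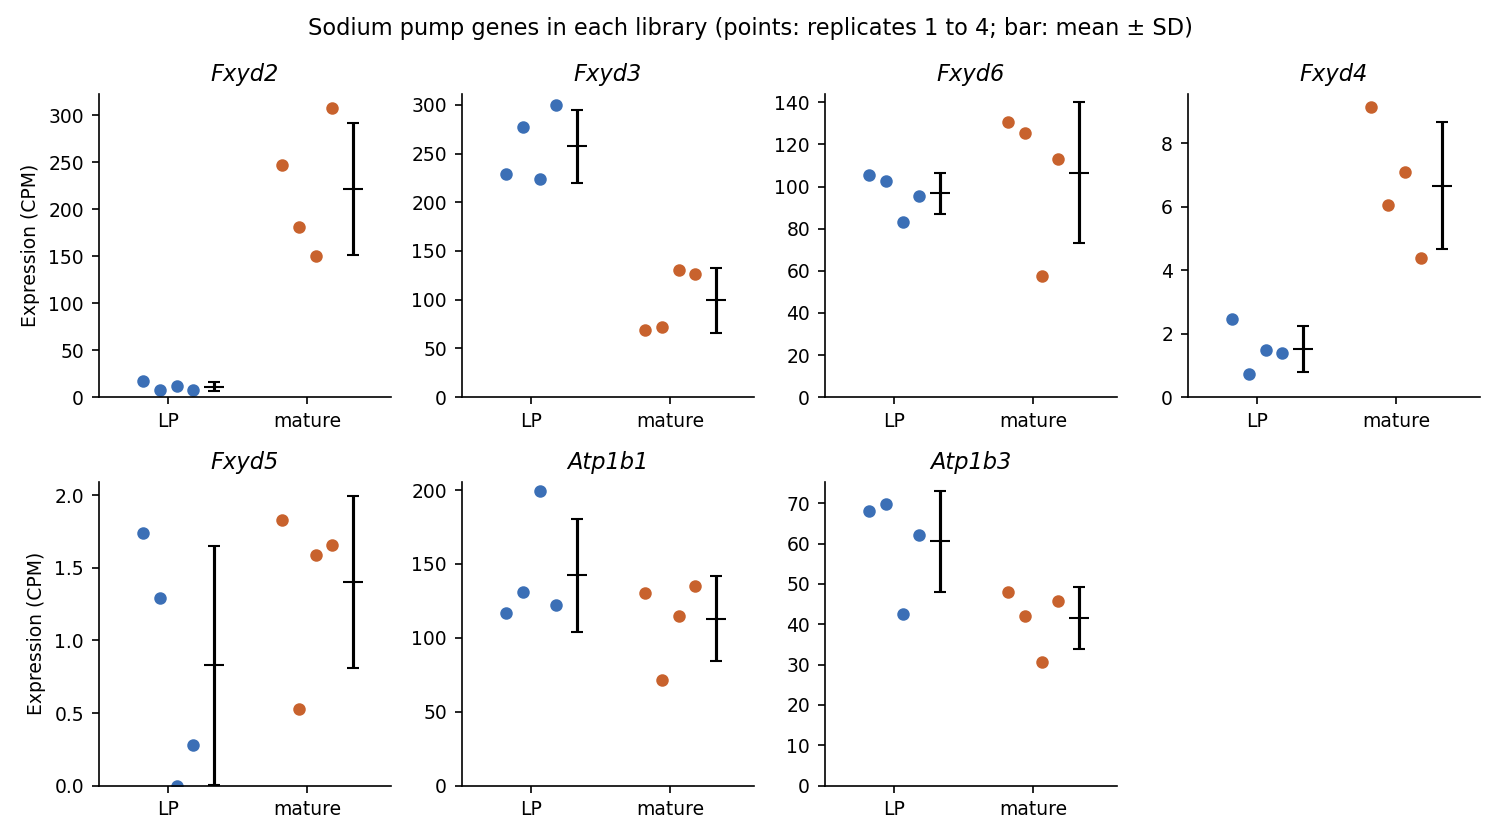
Expression in CPM (linear axes from 0) of the 7 family members that passed the filter on low counts, with 1 point per library, LP replicates 1 to 4 on the left and mature replicates 1 to 4 on the right of each panel, and the mean ± SD as a black bar. Fxyd2 and Fxyd4 were higher in every mature than in every LP library, Fxyd3 was higher in every LP library, and the points of the other genes overlap.

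Fxyd3 shares exons with Lgi4, a gene on the opposite strand that encodes a secreted protein of the nerve sheath. Lgi4 exons cover 1882 of the 2894 bases (65%) of the RefSeq coding transcript of Fxyd3. The sources used here do not say whether reads were counted by strand, and without strand the reads of both genes cannot be told apart there. Lgi4 had 0.666, 0.650, 0.671 and 0.673 counts for each count of Fxyd3 in LP replicates 1 to 4 and 0.718, 0.699, 0.715 and 0.717 in mature replicates 1 to 4. The ratio of the 2 genes thus stayed between 0.650 and 0.718 while Fxyd3 itself ranged from 68.8 to 299.9 CPM, and Lgi4 was called higher in LP too (log2 fold change 1.27 ± 0.24 SE, edgeR adjusted p = 0.00396). Because the 2 genes may share reads, the call of Lgi4 is not independent of that of Fxyd3.

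Measured within each library, without reference to library size, Fxyd2 had 0.0775, 0.0274, 0.0541 and 0.025 counts for each count of Fxyd3 in LP replicates 1 to 4. The same ratio was 3.6, 2.5, 1.16 and 2.44 in mature replicates 1 to 4. Fxyd3 was the more counted gene in every LP library and Fxyd2 in every mature library, and the lowest mature ratio was 14.9 times the highest LP ratio. Fxyd2 was chosen for its difference between the fractions, and Fxyd3 is in the study's LP set from these samples. The separation of this ratio is therefore a description and not independent evidence.

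**Figure D2:**
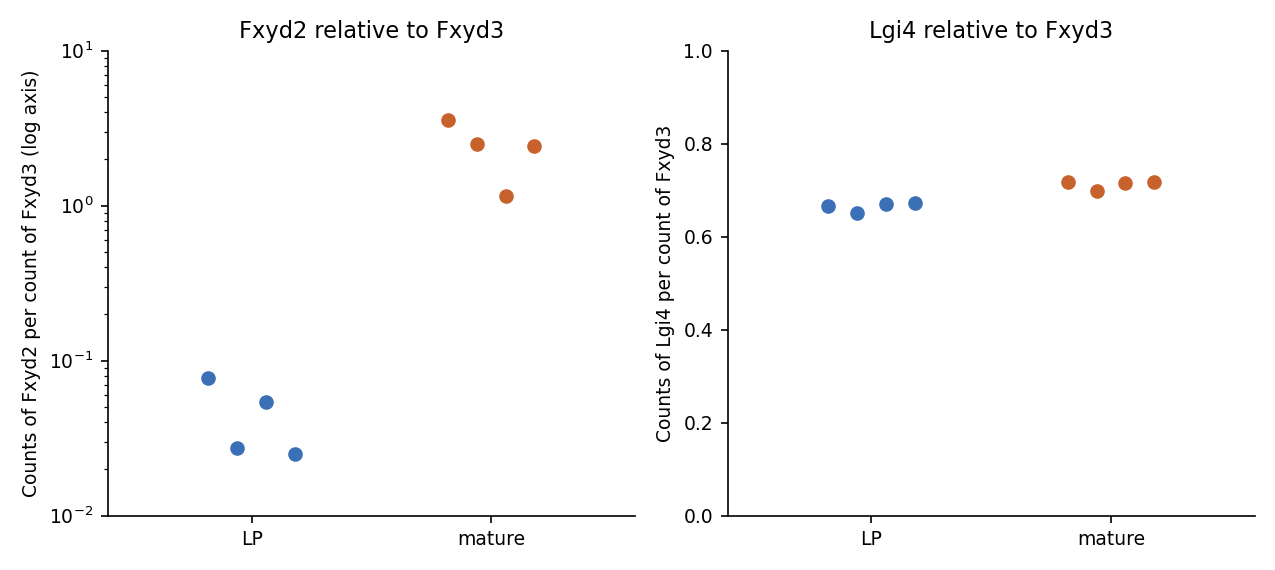
Left, counts of Fxyd2 per count of Fxyd3 in each library on a log axis, between 0.025 and 0.0775 in the 4 LP and between 1.16 and 3.6 in the 4 mature libraries. Fxyd2 was chosen for its difference between the fractions, so this panel is a description. Right, counts of Lgi4 per count of Fxyd3 on a linear axis from 0, between 0.650 and 0.718 in all 8 libraries; each point is 1 library.

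Fxyd4, also called CHIF, is a corticosteroid-induced regulator known from the kidney collecting duct and the distal colon, and it was low in both fractions. It had 17, 5, 9 and 10 counts in LP replicates 1 to 4 and 65, 23, 49 and 29 counts in mature replicates 1 to 4, which is 2.47, 0.719, 1.49 and 1.39 CPM against 9.14, 6.04, 7.07 and 4.37 CPM. The fractions did not overlap. The log2 fold change was -2.12 ± 0.55 (SE), or 4.39-fold higher in mature cells, with an edgeR adjusted p of 0.0171. The call was lost without LP replicate 2 (log2 fold change -1.88, edgeR adjusted p = 0.0508) and without mature replicate 1 (-1.91, edgeR adjusted p = 0.0528). Fxyd4 reached the level of the filter, 1.52 CPM, in all 4 mature libraries but only 2 LP libraries, so it entered the test through the fraction in which it was higher.

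Fxyd6, or phosphohippolin, a regulator described in brain and inner ear, was not the leading Fxyd gene of either fraction, and its libraries overlapped between the fractions. It lay at 105.4, 103, 83.2 and 95.7 CPM in LP replicates 1 to 4 and at 130.5, 125, 57.6 and 113 CPM in mature replicates 1 to 4. Mature replicate 3 was below every LP library and the other mature libraries above every LP library. The log2 fold change was -0.14 with a 95% interval of -0.66 to 0.39 (edgeR adjusted p = 0.713), so a difference of either sign within that interval remains possible. The adjacent genes Fxyd6 and Fxyd2 therefore had log2 fold changes of -0.14 and -4.30.

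Fxyd5, or dysadherin, a regulator that also loosens cell adhesion, had 12, 9, 0 and 2 counts in LP and 13, 2, 11 and 11 counts in mature replicates 1 to 4. Its log2 fold change of -0.76 had a 95% interval of -2.75 to 1.23 (edgeR adjusted p = 0.581) and was -1.38 without LP replicate 1, and a difference was not detectable at this depth. Fxyd1, or phospholemman, the regulator of heart and skeletal muscle, had 1 count, in LP replicate 4, and 0 counts in the other 7 libraries. Fxyd1 did not pass the filter and was not tested.

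Of the 3 beta subunit genes, 2 passed the filter, and 0 were called by edgeR's quasi-likelihood test, by DESeq2 or by edgeR's exact test, with 1 at an unadjusted p under 0.05. Of all 12816 tested genes, these 3 tests called 3161, 3791 and 3666. By the quasi-likelihood test, 4783 had an unadjusted p under 0.05. With 2 genes tested, nothing is read from these counts. Atp1b1, the main beta subunit of most epithelia, lay at 117, 131, 199 and 122 CPM in LP replicates 1 to 4 and at 130.1, 71.7, 114.5 and 135 CPM in mature replicates 1 to 4. The fractions overlapped, with LP replicate 3 the highest library and mature replicate 2 the lowest. Between libraries that share a number the difference was -0.15, 0.87, 0.80 and -0.14 on the log2 CPM scale, of either sign. The log2 fold change was 0.33, with a 95% interval of -0.19 to 0.86 (edgeR adjusted p = 0.339). Atp1b1 shares 575 bases of its exons with Nme7 on the opposite strand, a gene with 0.405 to 0.729 counts for each count of Atp1b1, and the reads of the 2 genes cannot be told apart there without strand.

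Atp1b3, the beta 3 subunit, lay at 68.1, 69.7, 42.5 and 62.1 CPM in LP replicates 1 to 4 and at 47.9, 42.0, 30.8 and 45.6 CPM in mature replicates 1 to 4. LP replicate 3 fell among the mature libraries and the other LP libraries were above all of them. Between libraries that share a number, Atp1b3 was higher in LP for 4 of 4 numbers, by 0.50, 0.73, 0.46 and 0.44 on the log2 CPM scale. The log2 fold change was 0.54 ± 0.22 (SE), with a 95% interval of 0.07 to 1.02, and it did not pass after adjustment over all genes (edgeR adjusted p = 0.0912, or 0.052 with the number as a block). Without LP replicate 3 it was called, with a log2 fold change of 0.69 (edgeR adjusted p = 0.0403).

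Atp1b2, the beta 2 subunit and an adhesion molecule of glia, had 0, 3, 2 and 18 counts in LP and 0, 0, 1 and 0 counts in mature replicates 1 to 4, and it did not pass the filter either. LP replicate 4 held 18 of the 23 LP counts. The glial marker Gfap had 23 counts in that library, and its part in the Atp1b2 counts was not tested.

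Of the 6 members other than Fxyd2 that passed the filter, 2 were called, Fxyd3 higher in LP and Fxyd4 higher in mature cells, while 24.7% of all 12816 tested genes were called, 10.9% as higher in LP and 13.8% as higher in mature cells. The libraries of the fractions did not overlap for these same 2 members, and for 29.5% of all tested genes. The genes were picked with this contrast known, and nothing is read from these counts. The median log2 fold change of those 6 was 0.10 and that of all tested genes 0.00.

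Levels of different genes can be compared only per length, here as CPM per kilobase of annotated exon (all exons of a gene merged). In LP libraries the order was Fxyd3 at 53.1 ± 7.69, Fxyd6 at 23.6 ± 2.42, Fxyd2 at 2.81 ± 1.21, Fxyd4 at 0.775 ± 0.368 and Fxyd5 at 0.198 ± 0.197 CPM per kilobase (SD, n = 4). In mature libraries it was Fxyd2 at 55.4 ± 17.5, Fxyd6 at 25.9 ± 8.15, Fxyd3 at 20.5 ± 6.87, Fxyd4 at 3.4 ± 1.02 and Fxyd5 at 0.334 ± 0.141 CPM per kilobase (SD, n = 4). Fxyd6 and Fxyd3 did not differ beyond their spread in mature cells, where Fxyd6 was the higher in 3 of 4 libraries. Fxyd3 led in 4 of 4 LP and Fxyd2 in 4 of 4 mature libraries. Reads of Lgi4 may be part of the Fxyd3 level. The order of the means was the same with the length of the longest transcript or of the RefSeq coding transcripts, which differ most for Fxyd2 (4005 bases of merged exons, 632 in the RefSeq coding transcript).

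As a share of the summed Fxyd level per kilobase, Fxyd3 made up 59.7, 67.5, 65.8 and 70.4% in LP replicates 1 to 4 and 12.6, 15.9, 32.6 and 19.6% in mature replicates 1 to 4. Fxyd2 made up 2.13 to 5.61% in LP and 45.6 to 57.8% in mature libraries, and Fxyd6 26.5 to 32.5% in LP and 17.0 to 32.5% in mature libraries. Fxyd3 and Fxyd2 thus exchanged places, whereas the ranges of Fxyd6 overlapped. With the shorter RefSeq coding transcripts the share of Fxyd2 was 10.9 ± 4.62% in LP and 75.8 ± 3.98% in mature cells (SD, n = 4), and that of Fxyd6 32.9 ± 1.61% and 13.1 ± 3.74%, without overlap. The sum includes Fxyd2, chosen for this difference, and its higher level in mature cells lowers the shares of the other genes there. In CPM, Fxyd6 overlapped between the fractions, with a log2 fold change of -0.14.

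The beta subunits kept 1 order in both fractions. Atp1b1 made up 57.1, 59.3, 78.3 and 59.9% of the summed beta level per kilobase in LP replicates 1 to 4 and 67.8, 56.95, 74.2 and 69.7% in mature replicates 1 to 4, with a mean of 63.6 ± 9.86% and 67.2 ± 7.32% (SD, n = 4 each). The fractions overlapped, and the difference was smaller than either SD. Atp1b3 made up nearly all of the remainder, and Atp1b1 was above Atp1b3 in 8 of 8 libraries. Atp1b2 reached 0.921% in LP replicate 4 and less elsewhere.

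**Figure D3:**
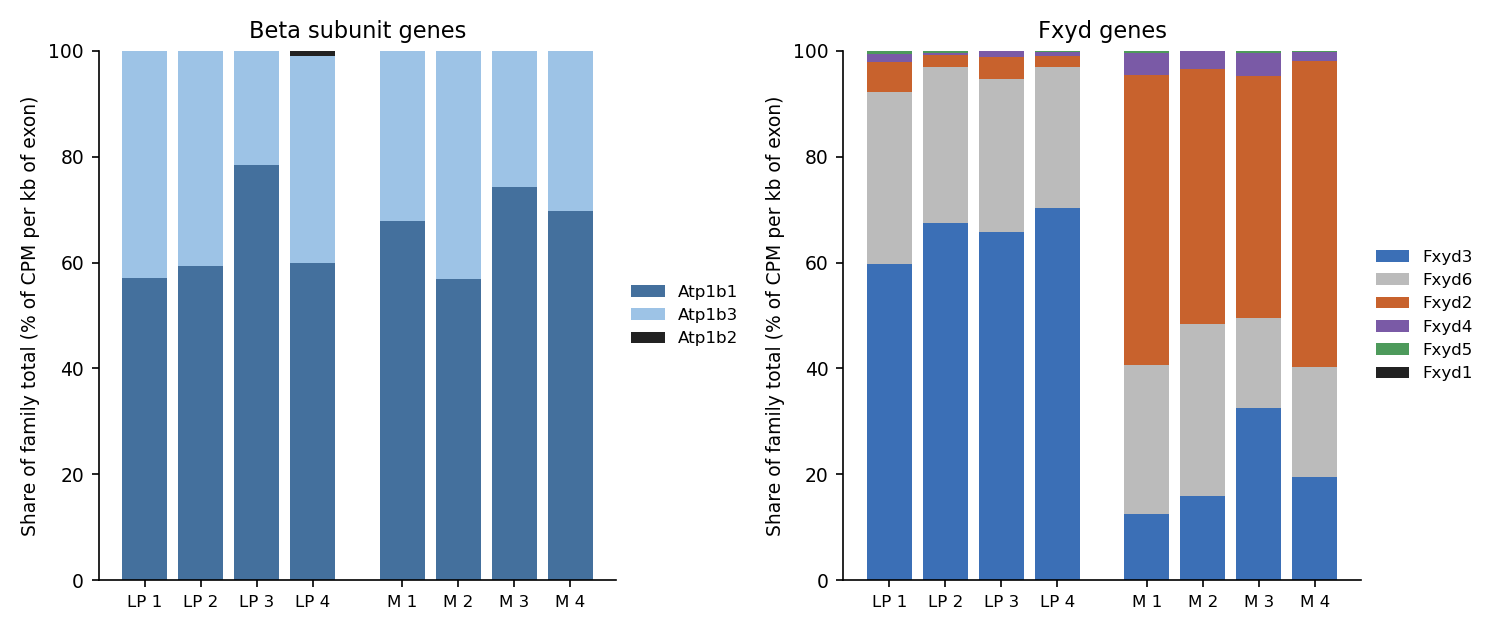
Share of each gene in the summed level of its family (percent of CPM per kilobase of merged exons) in LP replicates 1 to 4 and mature replicates 1 to 4 (M), as stacked bars from 0 to 100%. Atp1b1 held 56.95 to 78.3% of the beta level in all 8 libraries, while Fxyd3 led the Fxyd genes in LP and Fxyd2 in mature libraries.

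Bowtie2, which made the alignments, does not split a read across an intron. Of all positions at which a read of 51 bases can start on the RefSeq coding transcript, 36% keep the read within 1 exon for Fxyd4, 64.4% for Fxyd2, 81.2% for Fxyd6, 84.6% for Atp1b3 and 90.1% for Atp1b1 and Fxyd3. The median exon measured 43 bases in Fxyd4, 57 in Fxyd2 and 170.5 in Atp1b1. These shares come from the annotation and not from the reads, and which transcripts each fraction used was not measured. The part of these shares in the levels was not tested.

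Of the relatives of these genes outside the selection, Fxyd7 and the proton pump gene Atp12a had 0 counts in all 8 libraries. Atp1b4, a beta-like protein of muscle, had 16 counts in mature replicate 1 and 0 in the other 7.

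The pump works with other transport proteins, and 31 such genes were listed by role as channels, transporters and their regulators, of which 26 passed the filter, 4 were called higher in LP, 4 were called higher in mature cells and 18 were not called by edgeR's quasi-likelihood test, while DESeq2 and edgeR's exact test each called 9. Over all tested genes the share called by the quasi-likelihood test was 24.7%, with 10.9% in the direction of LP and 13.8% in that of mature cells. DESeq2 and the exact test called 3791 and 3666 of all 12816 tested genes. The median log2 fold change of the 26 transport genes was 0.04, beside 0.00 for all tested genes. Of the 9 tested genes of the epithelial sodium channel and its regulators, 1 was called, the channel subunit Scnn1a. Scnn1a was 6.72 ± 3.34 CPM in LP and 31.7 ± 12.6 CPM in mature cells (SD, n = 4), a log2 fold change of -2.23 ± 0.47 (edgeR adjusted p = 0.0069), and its libraries did not overlap. The other subunits, Scnn1b and Scnn1g, had log2 fold changes of 0.23 and 2.28 with 95% intervals of -0.99 to 1.46 and -0.07 to 4.63, and neither was called (edgeR adjusted p = 0.794 and 0.144).

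Among the 9 tested cotransporters, exchangers and their kinases, 2 were called higher in mature cells and 1 in LP, beside 13.8% and 10.9% of all tested genes. Slc12a2, the sodium-potassium-chloride cotransporter NKCC1, which loads cells with chloride on the sodium gradient, was 1062, 432, 241.5 and 233 CPM in LP replicates 1 to 4 and 2924, 2538, 1093 and 2396 CPM in mature replicates 1 to 4. The fractions were separated by a narrow margin, between LP replicate 1 and mature replicate 3, with a log2 fold change of -2.19 ± 0.50 (edgeR adjusted p = 0.01), and of -2.89 without LP replicate 1. Slc12a2, like Fxyd2, is in the study's own mature set drawn from these samples.

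Of the kinases that regulate such cotransporters, Wnk4 was 0.393 ± 0.491 CPM in LP and 4.61 ± 2.24 CPM in mature cells (SD, n = 4), with a log2 fold change of -3.48 ± 0.98 (edgeR adjusted p = 0.0248). Like Fxyd4, Wnk4 passed the filter through its mature libraries. Wnk4 lost its call without LP replicate 2 (edgeR adjusted p = 0.0619), LP replicate 3 (0.0549), LP replicate 4 (0.0616) or mature replicate 4 (0.0699), and its log2 fold change was -4.45 without LP replicate 1. Stk39, the SPAK kinase that phosphorylates these cotransporters, was 108 ± 36.8 CPM in LP and 47.3 ± 20 CPM in mature cells (SD, n = 4), with a log2 fold change of 1.19 ± 0.36 (edgeR adjusted p = 0.0321). Stk39 lost its call without LP replicate 2 (edgeR adjusted p = 0.0985), LP replicate 3 (0.0686) or mature replicate 4 (0.0651). The libraries of the fractions did not overlap for either kinase.

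Of the 8 tested potassium and chloride channel genes, 3 were called higher in LP and 1 in mature cells, beside 10.9% and 13.8% of all tested genes. DESeq2 and the exact test each called 5 of the 8, and 3791 and 3666 of all 12816 tested genes. Kcnn4, a calcium-activated potassium channel, was 109 ± 35.8 CPM in LP and 15.4 ± 12.6 CPM in mature cells (SD, n = 4), a log2 fold change of 2.80 ± 0.53 (edgeR adjusted p = 0.00385), and of 3.51 without mature replicate 3. Kcnk5, a potassium leak channel, was 58.1 ± 5.3 CPM in LP and 12.1 ± 7.58 CPM in mature cells, a log2 fold change of 2.26 ± 0.42 (edgeR adjusted p = 0.00375). Kcne3, an accessory subunit of the channel Kcnq1, was 239.9, 336, 9.13 and 20.4 CPM in LP replicates 1 to 4 and at most 2.17 CPM in mature cells, where its mean was 123-fold lower (edgeR adjusted p = 0.00344). Kcne3 passed the filter through its LP libraries, the fraction in which it was higher. Its log2 fold change was 6.24 without LP replicate 2 and 7.61 without mature replicate 3. LP replicates 1 and 2 were thus far above LP replicates 3 and 4, while Kcnq1 itself had a log2 fold change of 0.06 with a 95% interval of -0.82 to 0.94.

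Kcnk1, another potassium leak channel, was 199 ± 26.3 CPM in LP and 324 ± 87.5 CPM in mature cells (SD, n = 4), with overlapping libraries and a log2 fold change of -0.70 ± 0.21 (edgeR adjusted p = 0.034). Kcnk1 lost its call with no filter (edgeR adjusted p = 0.0593) and without LP replicate 2 (0.101), 3 (0.0743) or 4 (0.0859) or mature replicate 1 (0.0851), 2 (0.0976) or 4 (0.0569). In the other direction, 4 genes that edgeR's quasi-likelihood test did not call with all 8 libraries were called by it when 1 library was left out. These were Scnn1g (edgeR adjusted p = 0.0465) and the ubiquitin ligase Nedd4l (0.0359) without mature replicate 3, the potassium channel Kcnma1 without mature replicate 3 (0.0115) or mature replicate 4 (0.0356), and the potassium channel Kcnj15 without mature replicate 4 (0.00544). Kcnma1 was also called with all 8 libraries by DESeq2 (adjusted p = 0.00559) and by edgeR's exact test (adjusted p = 0.0146). It was not called with no filter (edgeR adjusted p = 0.0688) or with the replicate block (log2 fold change -1.81, edgeR adjusted p = 0.1545). Its mature libraries were split, at 38.7, 37.8, 1.73 and 4.52 CPM in replicates 1 to 4, beside 2.01 to 6.10 CPM in LP. Each of its calls with 1 library left out thus followed the removal of a low mature library. Kcnj15 had 0 counts in mature replicates 1 to 3, so that its call set LP against libraries all at 0, after the only mature library with counts was removed. With all 8 libraries, Scnn1g and Kcnj15 passed the filter through their LP libraries.

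**Figure D4:**
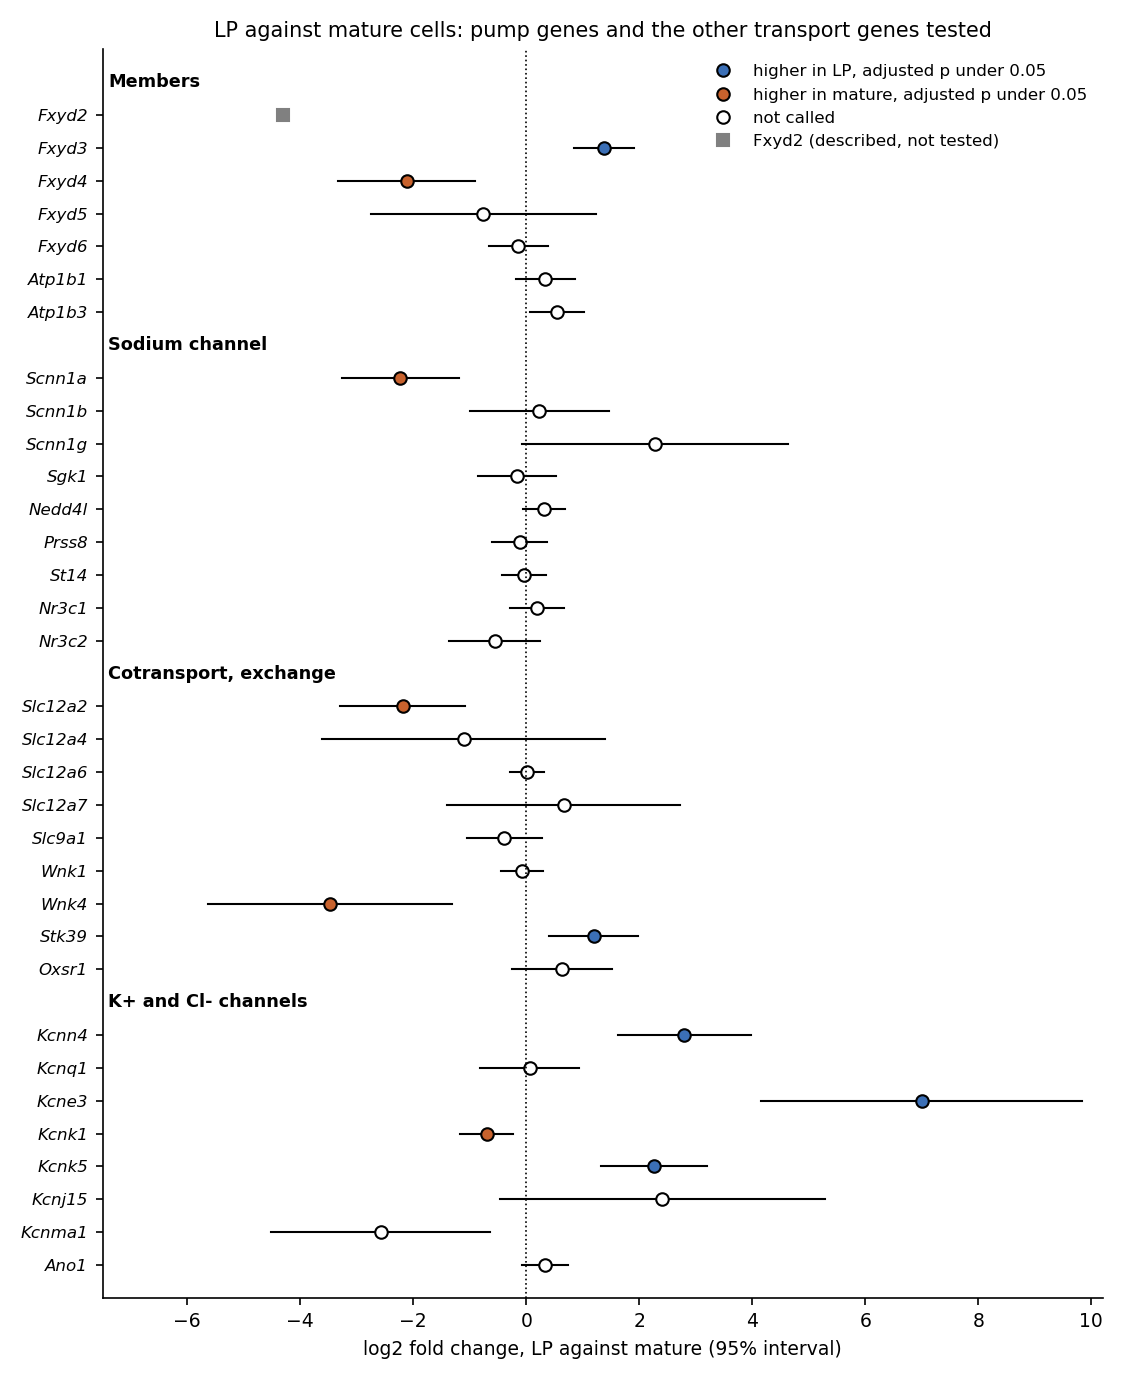
Log2 fold change of LP against mature cells with its 95% interval (edgeR quasi-likelihood fit, 4 libraries each) for the 7 family members and the 26 other transport genes that passed the filter, grouped by role. Filled circles passed an adjusted p of 0.05, blue for higher in LP and orange for higher in mature cells, open circles did not, and the grey square marks Fxyd2 at -4.30, which was described and not tested.

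The genes whose level followed Fxyd2 most closely over the 8 libraries were found by the root mean square difference of log2 CPM after each gene's mean was subtracted. They were Ptn, a secreted growth factor, at 0.334, Tspan13, a tetraspanin, at 0.389, Cldn10, a tight junction protein, at 0.407, Apof, an apolipoprotein, at 0.454, and Snhg11, a non-coding RNA, at 0.463, while the median over all tested genes was 2.26. Ptn was 127, 60.1, 172 and 66.3 CPM in LP replicates 1 to 4 and 2412, 2259, 1803 and 2578 CPM in mature replicates 1 to 4. Cldn10 was 18.3, 12.1, 8.13 and 6.24 CPM in LP replicates 1 to 4 and 153, 146, 107 and 210.2 CPM in mature replicates 1 to 4. As for Fxyd2, mature replicate 3 was the lowest and mature replicate 4 the highest mature library of both genes. The others did not all follow this, since Tspan13 was highest in mature replicate 2, at 1807 CPM against 1454 CPM in mature replicate 4, and Apof was lowest in mature replicate 2, at 2.89 CPM against 5.05 CPM in mature replicate 3. Apof had 2, 0, 0 and 0 counts in LP replicates 1 to 4 and passed the filter through its mature libraries. Its log2 fold change was -5.80, against -4.30 for Fxyd2. The prior count of 2 in log2 CPM raises counts of 0, and its part in the closeness of Apof was not tested. None of the 5 is a sodium pump gene, and since the measure includes the difference between fractions, any gene with a fold change like that of Fxyd2 scores well on it.

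**Figure D5:**
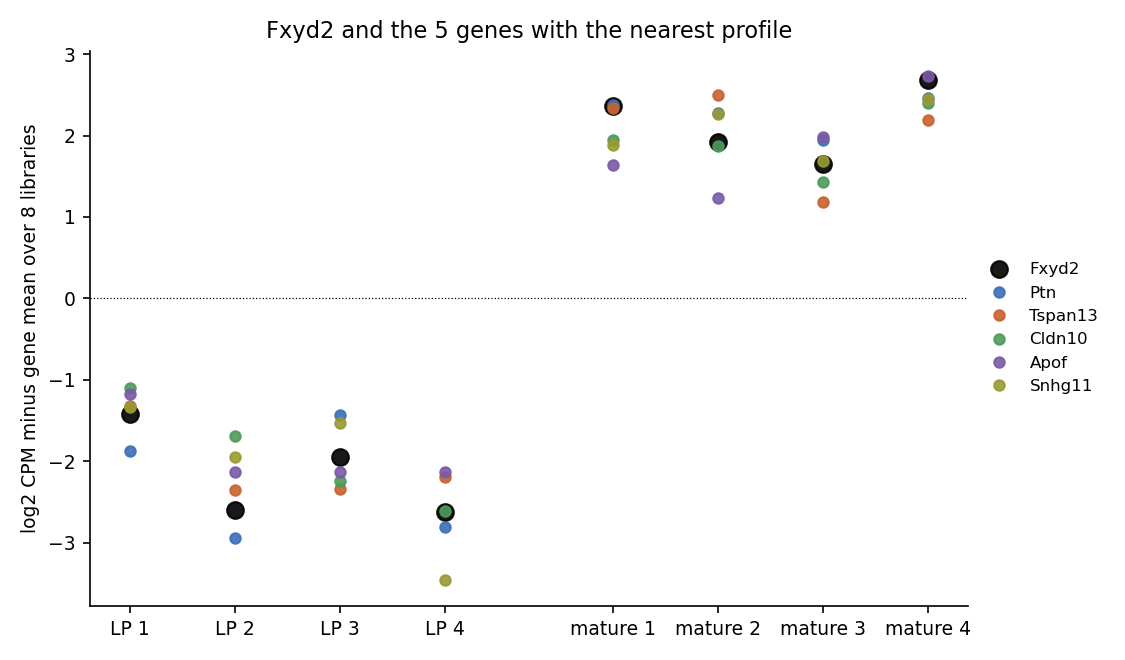
Log2 CPM minus the gene's mean over the 8 libraries for Fxyd2 (large black points) and the 5 genes with the nearest profile (coloured points), in LP replicates 1 to 4 and mature replicates 1 to 4. All 6 genes lie below 0 in the 4 LP and above 0 in the 4 mature libraries, with a root mean square difference from Fxyd2 of 0.334 to 0.463.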

How the data were processed

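RNA-seq of 4 LP and 4 mature luminal libraries was analysed, made with a low-input cDNA kit and sequenced as single reads of 51 bases. The submitters' processing notes name cutadapt 4.2 and Bowtie2 2.3.5.1, and the methods the mouse genome mm10. The authors deposited raw counts per gene by Entrez Gene ID, without normalization; the counting program, its annotation, strand setting and handling of reads that match several genes are not given in the sources used here. The methods state fewer replicates than the 4 per fraction analysed, without saying which. Of 24594 IDs, 24570 matched a RefSeq symbol.

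Counts were scaled by TMM, filtered with filterByExpr, which kept 12816 genes, and tested with the quasi-likelihood test of edgeR 4.0.16 (limma 3.58.1, R 4.3.3), fraction as the only term, Benjamini-Hochberg adjustment over all tested genes and a threshold of 0.05. CPM are TMM-scaled with no added count; log2 CPM add a prior count of 2. Fold changes are LP against mature. Lengths and positions are from GENCODE M21. Alternatives were RLE factors, DESeq2 1.42.0, edgeR's exact test, no filter, a replicate block, each library left out, and other lengths, of which the RefSeq transcripts were added after seeing the data. Summaries used Python 3.11.15 and pandas 2.3.3.

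The family members, lists, tests and named genes were chosen with earlier results of these data known. Named were all members, the called pathway genes, further relatives, 4 luminal markers and the 5 genes nearest to Fxyd2; others were named after their values were seen, namely overlapping genes and those whose call changed. All pairs of libraries of a fraction differed by more than counting noise. Some listed genes are not reported here.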

Additional observations from a re-analysis of the deposited data

Results flagged for a closer look

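In 7 of 78 groups of 4 libraries, 1 library stood apart from the other 3 by more than Dixon's 95% critical value allows. For values with a normal spread that limit flags about 1 in 20 groups, or 3.9 here. Counts near 0 have no such spread, so nothing is read from 7 against 3.9. Where the other 3 libraries were at 0, as for Atp1b4, Hsd11b2 and Kcnj15 below, any value passes the limit. No family member was flagged, although Fxyd1 in LP and Atp1b2 in mature cells each had a count in only 1 library. In mature replicate 1 the beta-like gene Atp1b4 was at 2.25 CPM against 0 in the other mature libraries. Mature replicate 3 held 4 of the 7: Nedd4l, a ubiquitin ligase that removes sodium channels, at 275 CPM against 192 to 203, Nr3c2, the mineralocorticoid receptor, at 23.4 CPM against 60.1 to 66.8, Hsd11b2, the enzyme that shields that receptor from glucocorticoids, at 2.89 CPM against 0, and the potassium channel Kcnj16 at 1.15 CPM against 0 to 0.141. Kcnj15, another potassium channel, was at 4.52 CPM in mature replicate 4 against 0 in the other mature libraries. Kcnj16 was at 1.83 CPM in LP replicate 3 against 0 to 0.29 in the other LP libraries.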

How the results depend on the processing

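With all 8 libraries, Fxyd3 and Fxyd4 were the members called under RLE factors, DESeq2, the exact test, no filter and the replicate block alike, and the number of genes called overall lay between 2917 and 3791. With the replicate number as a block, 3027 genes and 2 members were called, against 3161 and 2 without it. Same-numbered libraries correlated by 0.0618 to 0.148 after the fraction means were subtracted, and those with different numbers by -0.156 to 0.0779. Of 8 libraries, 7 correlated best with their own number. The labels share these numbers between fractions but do not say what they mark, and the study states no pairing, so the block was kept as an alternative. The block changed 1 call among the genes named, that of Kcnk1 (edgeR adjusted p = 0.0525), and moved the log2 fold change of Kcne3 to 6.00. With 1 library left out, 1 to 3 members were called (1 without LP replicate 2 or mature replicate 1, where Fxyd4 was lost, and 3 without LP replicate 3, where Atp1b3 was gained), and 2338 to 3414 genes overall. The Atp1b1 share moved by less than 1 SD under either other length, to 63.6 or 63.5% in LP and 67.1% in mature cells, and lay between 58.8 and 65.8% in LP and between 64.8 and 70.5% in mature cells with 1 library left out. No called log2 fold change reversed its sign under any of these alternatives. Depth limits Fxyd1, Fxyd5 and Atp1b2, each with 18 or fewer counts per library.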
